A study of Mus musculus with 32 samples.

Results

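The mouse Cyp2 genes encode the largest family of cytochrome P450 monooxygenases, and this account follows their messenger RNA in the kidney cortex of 32 mice. Members were taken as every row of the deposited count table whose symbol was Cyp2 followed by 1 lower-case letter and a number, which gave 48 of 32544 genes. Of these, 25 were detected, meaning at least 0.5 CPM (counts scaled to the library total) in 4 or more of the 32 mice. The series measured polyadenylated RNA by bulk sequencing in kidney cortex of mice of the C57BL/6J-Col4a3tm1Dec strain at 25 weeks of age, with 4 mice in each of 8 groups. Alport mice were homozygous for the Col4a3tm1Dec allele (Col4a3-/-), and the controls were heterozygous (Col4a3+/-), so every mouse carried at least 1 mutant allele and no wild-type mouse was measured. Mice of either sex and genotype received vehicle or nicotinamide riboside (NR, a vitamin B3 form that cells convert to NAD+) at 0.5% by weight in a purified diet from 10 weeks of age. Total counts ran from 16621944 to 27778797 per mouse, with a median of 22071395.

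Cyp2 enzymes sit in the endoplasmic reticulum, take electrons from cytochrome P450 reductase and insert 1 oxygen atom into steroids, fatty acids, vitamins, drugs and solvents. Rodent genomes carry many more copies than the human genome, arranged in clusters of near-identical neighbours, and several of these copies are known for sex differences in liver and kidney that depend on androgen or growth hormone. In the kidney most of the abundant members are proximal tubule enzymes. Because the samples were whole cortex, fewer tubule cells and less RNA per cell cannot be told apart.

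The detected genes lay on 5 chromosomes in the GRCm38 assembly (mm10). All 7 detected Cyp2j genes stood within 636.6 kb of chromosome 4 in the order Cyp2j13, Cyp2j7, Cyp2j11, Cyp2j8, Cyp2j6, Cyp2j9 and Cyp2j5. The 5 detected Cyp2d genes (Cyp2d22, Cyp2d10, Cyp2d9, Cyp2d12 and Cyp2d26) spanned 423.8 kb of chromosome 15. Chromosome 7 carried 9 genes, namely Cyp2s1, Cyp2b10, Cyp2b9, Cyp2a4, Cyp2a5, Cyp2f2 and Cyp2t4 near one another and Cyp2r1 and Cyp2e1 farther away. Cyp2c68, Cyp2c69 and Cyp2c44 (named Cyp2c23 in the annotation used for positions) were on chromosome 19, and Cyp2u1 was on chromosome 3.

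Promoter sequences are shown for the genes whose values differ most between neighbours of 1 cluster or between the sexes. They were taken from RefSeq for GRCm38.p6 as the 250 bases before the transcript start, and 20 of the 25 detected members had an entry. Cyp2a4 and Cyp2a5 come first because their counts parted in individual NR-treated mice although their promoters are nearly the same. Capitals mark the 4 bases at which each of the 2 printed stretches differs from the other (Cyp2a4 at chr7:26306942-26307191 and Cyp2a5 at chr7:26835089-26835338, both on the plus strand).
Cyp2a4: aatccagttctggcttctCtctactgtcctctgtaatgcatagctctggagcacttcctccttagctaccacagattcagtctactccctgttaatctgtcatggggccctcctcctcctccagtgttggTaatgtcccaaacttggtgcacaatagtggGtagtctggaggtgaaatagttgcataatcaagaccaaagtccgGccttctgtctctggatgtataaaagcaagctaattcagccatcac
Cyp2a5: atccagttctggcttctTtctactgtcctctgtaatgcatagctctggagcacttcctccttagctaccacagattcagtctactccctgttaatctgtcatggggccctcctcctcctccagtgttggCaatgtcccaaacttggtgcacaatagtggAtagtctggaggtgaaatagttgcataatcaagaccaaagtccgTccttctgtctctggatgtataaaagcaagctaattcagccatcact
Over the full windows, which run to 50 bases past the start, these promoters were identical at 294 of 299 aligned positions (98.3%), and the coding sequences were identical at 1459 of 1482 (98.4%).

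The next sequences pair a gene with higher counts in control males with another of its cluster whose sex difference was smaller or opposite. Cyp2j13 (chr4:96077541-96077790, minus strand) is paired with Cyp2j5 at the other end of the cluster (chr4:96664120-96664369, minus strand), which was also higher in males but by less. Cyp2d9 (chr15:82452127-82452376, plus strand) is paired with Cyp2d26 (chr15:82794246-82794495, minus strand), which was higher in females. Cyp2e1 (chr7:140763569-140763818, plus strand) is shown because it had the largest count per length in control males. Capitals mark matches to any of 6 motifs searched on both strands: the TATA box TATAAA, the HNF4 element CAAAGTNCA, the HNF1 half-site GTTAAT, the steroid receptor half-site TGTTCT, the STAT element TTCNNNGAA and the antioxidant response core TGACNNNGC.
Cyp2j13: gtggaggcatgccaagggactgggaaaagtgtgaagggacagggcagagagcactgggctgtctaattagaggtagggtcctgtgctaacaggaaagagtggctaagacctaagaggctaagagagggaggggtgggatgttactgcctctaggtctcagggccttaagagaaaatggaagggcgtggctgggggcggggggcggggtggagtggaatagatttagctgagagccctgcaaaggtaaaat
Cyp2j5: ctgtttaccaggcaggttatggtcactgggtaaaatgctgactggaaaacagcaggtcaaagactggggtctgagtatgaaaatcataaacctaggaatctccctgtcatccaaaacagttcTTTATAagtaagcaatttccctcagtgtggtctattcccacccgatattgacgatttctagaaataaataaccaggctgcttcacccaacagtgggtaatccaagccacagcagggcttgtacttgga
Cyp2d9: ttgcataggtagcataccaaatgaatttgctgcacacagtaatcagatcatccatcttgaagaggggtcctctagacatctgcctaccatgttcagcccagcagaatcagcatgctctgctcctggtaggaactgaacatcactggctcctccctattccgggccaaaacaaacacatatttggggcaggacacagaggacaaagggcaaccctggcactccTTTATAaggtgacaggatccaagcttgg
Cyp2d26: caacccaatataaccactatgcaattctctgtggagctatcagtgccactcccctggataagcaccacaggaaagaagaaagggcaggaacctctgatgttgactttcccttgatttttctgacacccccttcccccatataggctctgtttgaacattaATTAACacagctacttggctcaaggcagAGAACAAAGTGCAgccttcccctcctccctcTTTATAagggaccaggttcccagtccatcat
Cyp2e1: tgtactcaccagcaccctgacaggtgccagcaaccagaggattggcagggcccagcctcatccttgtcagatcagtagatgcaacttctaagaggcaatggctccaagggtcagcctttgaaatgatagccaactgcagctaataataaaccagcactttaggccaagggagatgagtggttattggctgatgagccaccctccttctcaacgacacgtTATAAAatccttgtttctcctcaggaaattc
Cyp2j13 held no match to the 6 motifs in its window. In Cyp2d26 the steroid receptor half-site and the HNF4 element overlap in 1 run of capitals, at -62 and -58 from the start, beside an HNF1 half-site and a TATA box at -31. The letters of the TATA box were matched in the full windows of 8 of the 20 members and in 14.2% of all 27025 promoters. The Cyp2j5 match lay at -128 and the Cyp2c69 match at 10, past the start, whereas the others lay at -31 to -28. The HNF4 element was in 3 members (Cyp2c68, Cyp2c69 and Cyp2d26; 1.41% of all promoters), the HNF1 half-site in 5 (7.2%) and the steroid receptor half-site in 6 (19.0%). The STAT element was in Cyp2j11 alone (8.47% of all promoters) and the antioxidant response core in Cyp2j6 alone (12.5%). These matches describe letters in a short window and are not binding measurements.

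Identical stretches also bear on how far the counts of single members can be separated. Among 50-base words of the longest transcript, 38.8% of those of Cyp2a4 and 40.8% of those of Cyp2a5 occurred in another gene as well, mostly in each other. The shares were 43.3% for Cyp2c68 and 54.8% for Cyp2c69 (both chiefly with Cyp2c40), 40.5% for Cyp2d10, 29.0% for Cyp2d9 and 17.9% for Cyp2d12. They were 0.174% for Cyp2j5, 0.162% for Cyp2j13 and 4.82% for Cyp2e1. Counts of the Cyp2a pair and of Cyp2c68, Cyp2c69, Cyp2d9, Cyp2d10 and Cyp2d12 are therefore uncertain in how reads were divided among copies. Cyp2t4, Cyp2u1, Cyp2f2, Cyp2s1, Cyp2a4 and Cyp2d9 also overlap an annotated gene on the opposite strand, and strand use in the counting is not given in the sources used here.

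Subfamilies differed widely in how many members the cortex expressed. Detection was 7 of 8 for Cyp2j, 5 of 8 for Cyp2d, 2 of 4 for Cyp2a, 2 of 5 for Cyp2b and 3 of 15 for Cyp2c. The single-gene subfamilies Cyp2e1, Cyp2f2, Cyp2r1, Cyp2s1, Cyp2t4 and Cyp2u1 were all detected, whereas Cyp2g1 and Cyp2w1 were not. The 23 undetected members were Cyp2a12, Cyp2a22, Cyp2b13, Cyp2b19, Cyp2b23, Cyp2c29, Cyp2c37, Cyp2c38, Cyp2c39, Cyp2c40, Cyp2c50, Cyp2c54, Cyp2c55, Cyp2c65, Cyp2c66, Cyp2c67, Cyp2c70, Cyp2d11, Cyp2d34, Cyp2d40, Cyp2g1, Cyp2j12 and Cyp2w1, and the highest value any of them reached in a mouse was 0.656 CPM (Cyp2b19). Among those 23 were Cyp2c29, Cyp2c50, Cyp2c54 and Cyp2c70, which are abundant in mouse liver. Of 10 hepatocyte markers, Ahsg, Cps1, Tat, Cyp7a1 and Hpx reached no more than 0.691 CPM in any mouse, Alb reached 24.4 CPM, Apoc3 32.0 CPM and Serpina1a 356 CPM, and their sum was 33.05 to 375.5 CPM.

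Per kilobase of exon, the order of the abundant members depended on sex. In male controls on vehicle the leading values were 935.6 CPM per kb for Cyp2e1, 808.1 for Cyp2j5, 448.8 for Cyp2a4 and 320.8 for Cyp2a5. In female controls on vehicle Cyp2j5 led with 453.3 CPM per kb, followed by Cyp2d26 with 212.1, Cyp2a5 with 164.6, Cyp2j11 with 106.1, Cyp2a4 with 101.4 and Cyp2e1 with 85.66. Cyp2j5, an arachidonic acid epoxygenase of the proximal tubule, was thus among the first 2 in both sexes. At the other end, Cyp2r1 (vitamin D 25-hydroxylase) stood at 0.6781 CPM per kb in male and 0.7961 in female controls.

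**Figure D1:**
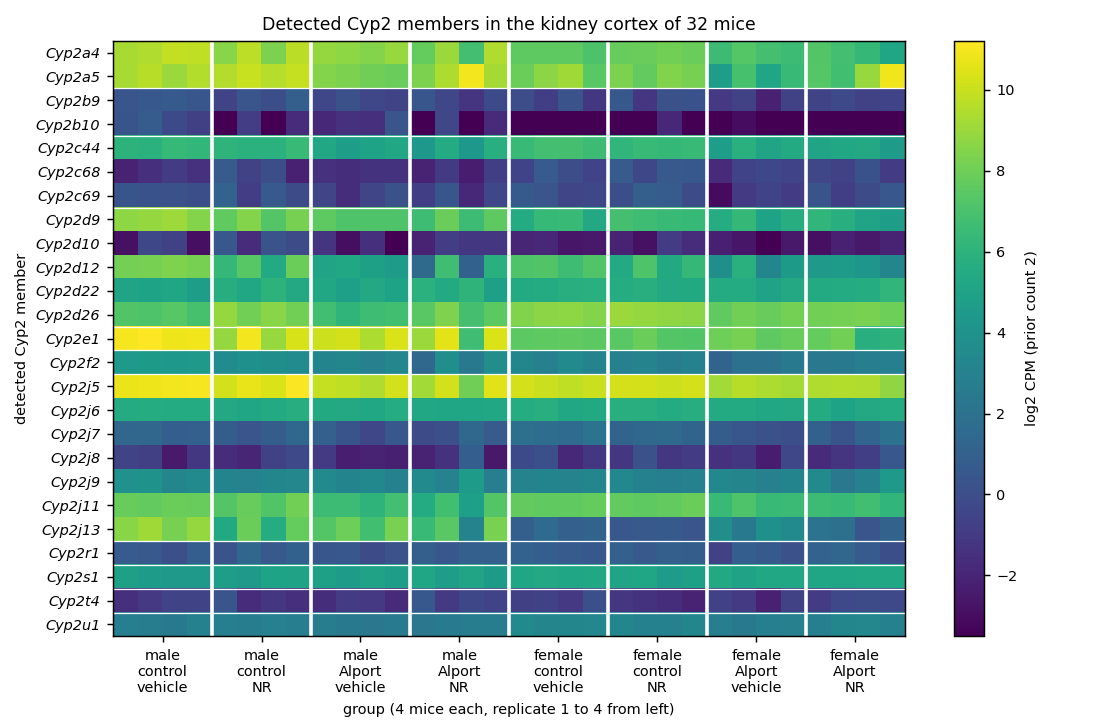
Heat map of log2 CPM (prior count 2) for the 25 detected members (rows, grouped by subfamily) in 32 mice (columns, 4 per group). Cyp2j5 is bright in every mouse, Cyp2j13 and Cyp2e1 are brighter in males, and Cyp2a5 stands out in single NR-treated Alport mice (1951 CPM in male 3 and 1868 CPM in female 4).

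Summed over the 25 detected members, the family made up 0.6057% ± 0.03344 (SD, n = 4) of all counts in male controls on vehicle and 0.2736% ± 0.01609 in female controls on vehicle. The sum was 7119 ± 379.1 CPM and 2823 ± 166.9 CPM in those groups. In Alport mice on vehicle it was 3488 ± 622.4 CPM in males and 1704 ± 290.3 CPM in females. The ranges did not overlap between genotypes in either sex, with controls at 6721 to 7595 and Alport mice at 2613 to 4084 CPM in males, and controls at 2583 to 2959 and Alport mice at 1481 to 2126 CPM in females. With NR the sum was 5408 ± 1714 CPM in male controls, 2993 ± 112.4 in female controls, 3858 ± 1529 in Alport males and 2185 ± 540.9 in Alport females. The SD among males was therefore larger on NR than on vehicle within each genotype, at 1714 against 379.1 CPM in controls and 1529 against 622.4 CPM in Alport mice. No test was made on these sums.

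Col4a3 itself was checked first. Its log2 CPM was 7.23 to 7.64 in male and 7.13 to 7.35 in female controls on vehicle, and 5.77 to 6.39 and 5.85 to 6.31 in the corresponding Alport mice. On NR it was 6.71 to 6.95 in female controls, below every female control on vehicle. Alport mice on NR were at 5.81 to 6.08 in males and 5.62 to 5.88 in females. The libraries labelled male control on NR spanned 5.88, 6.55, 6.23 and 7.33 (replicates 1 to 4), so replicates 1 and 3 lay within the range of Alport males on vehicle. Their interstitial matrix markers summed to 212.1 and 209.6 CPM, against 141 to 155.6 in male controls on vehicle and 1078 to 1667 in Alport males on vehicle. Values of the male control NR group are given with that in mind. Trimmed-mean scaling factors ran from 0.828 to 1.25, and on vehicle every control was below every Alport mouse. When total counts replaced them, the median log2 difference of all genes between Alport and control mice moved to 0.34 in males and 0.26 in females, and that between male and female controls to -0.19.

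The Alport comparison asks how the disease genotype relates to these genes on vehicle. In males, 12 of the 22 members tested fell and 1 rose (edgeR quasi-likelihood test, Benjamini-Hochberg adjusted p under 0.05), and among all 15286 genes tested 24.2% fell and 26.8% rose, 51% in total. In females, 10 of 23 fell and 2 rose, where 21.8% of 15709 genes fell and 24% rose, 45.8% in total. The median log2 fold change was -0.76 over the members in males and -0.61 in females, and close to 0 over all genes. Of the members that fell, 8 were shared by the sexes, namely Cyp2a4, Cyp2a5, Cyp2c44, Cyp2d12, Cyp2d26, Cyp2f2, Cyp2j5 and Cyp2j11. The share of all genes that fell in both sexes was not counted, so this overlap need not be particular to the members. With total counts as library size, 9 fell and 3 rose in males and 8 fell and 4 rose in females.

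The proximal tubule is where most of these enzymes are made, and its markers moved in the same direction. All 19 proximal tubule markers fell in Alport males (median log2 fold change -1.08), and 17 of 19 fell and 1 rose in Alport females (median -0.96). Their summed level was 47030 to 50810 CPM in male controls and 15770 to 26850 CPM in Alport males on vehicle, and 28710 to 37300 and 12450 to 21760 CPM in females. Their part in the fall of the Cyp2 genes was not tested. Among 8 markers of the collecting duct and loop of Henle, 5 fell and none rose in each sex, whereas immune cell markers (9 of 9 in males, 7 of 9 in females) and interstitial matrix markers (7 of 7 in each sex) rose. Of hepatocyte markers 1 of 4 fell in males and 1 of 5 rose and 1 fell in females, of adipocyte markers 1 of 1 and 1 of 2 rose, and of adrenal cortex markers none of 1 and none of 2 was called.

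Cyp2d12, a member of the Cyp2d cluster, showed the largest fall in both sexes. In males it measured 277, 294, 323 and 289.8 CPM in the 4 controls and 34.4, 39.8, 29.1 and 24.0 CPM in the 4 Alport mice on vehicle. Every control was far above every Alport mouse, and the log2 fold change was -3.14 (SE 0.14, adjusted p = 2.43e-08). In females the controls measured 142, 150.4, 101 and 148 CPM and the Alport mice 13.8, 56.5, 9.52 and 22.7 CPM, again without overlap, with a log2 fold change of -2.36 (SE 0.45, adjusted p = 0.00183).

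Its neighbour Cyp2d9, known as a testosterone 16-alpha-hydroxylase, fell in males alone by the test. Male values were 423, 479, 534 and 363 CPM in controls and 186, 144, 145 and 143 CPM in Alport mice, a log2 fold change of -1.46 (SE 0.13, adjusted p = 3.62e-06). Female controls measured 46.4, 83.1, 84.9 and 41.7 CPM and female Alport mice 48.3, 79.9, 32.2 and 50.5 CPM. These female groups overlapped, and the log2 fold change was -0.24 (SE 0.29, adjusted p = 0.53). The difference between the sexes in this effect did not pass the interaction test (difference 1.19, SE 0.36, adjusted p = 0.163).

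Cyp2d26, the third abundant gene of that cluster, fell less. It measured 149, 140.0, 165 and 119 CPM in male controls and 107, 70.7, 99.7 and 107 CPM in male Alport mice. No Alport male reached the lowest control, and the log2 fold change was -0.50 (SE 0.14, adjusted p = 0.00914). Female controls measured 348, 402, 412 and 358 CPM and female Alport mice 198, 271, 217 and 280.3 CPM, with no overlap and a log2 fold change of -0.61 (SE 0.12, adjusted p = 0.00227). The male call was lost with total counts as library size (log2 fold change -0.16, adjusted p = 0.31). Cyp2d22 was not called in either sex (0.21 in males, -0.24 in females), and Cyp2d10 was too low to be tested.

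In the Cyp2a pair both genes fell in both sexes. Cyp2a5 is the mouse coumarin 7-hydroxylase and counterpart of human CYP2A6. It measured 625, 800.2, 500.4 and 734 CPM in male controls and 359, 312, 257 and 229 CPM in male Alport mice, with no overlap (log2 fold change -1.12, SE 0.17, adjusted p = 0.000173). Female controls measured 236, 404, 553 and 172 CPM and female Alport mice 25.9, 119, 35.9 and 83.7 CPM (log2 fold change -2.33, SE 0.50, adjusted p = 0.00336). Female controls differed widely among themselves, yet the lowest of them was above every female Alport mouse. The female minus male difference in the log2 fold change of Cyp2a5 was -1.23 (SE 0.57, adjusted p = 0.395). Cyp2a4, a steroid 15-alpha-hydroxylase, measured 631, 694, 916 and 879 CPM in male controls and 477, 421, 358 and 491 CPM in male Alport mice (log2 fold change -0.76, SE 0.14, adjusted p = 0.000857). In females it measured 190.4, 186, 189.9 and 139 CPM in controls and 96.2, 162, 115 and 97.1 CPM in Alport mice. The female groups overlapped at 1 mouse of each genotype, and the log2 fold change was -0.55 (SE 0.17, adjusted p = 0.0215). In the fit of all 32 mice the male calls were lost (adjusted p = 0.0984 for Cyp2a5 and 0.0771 for Cyp2a4), as was the female Cyp2a4 call (0.254). That female call was also lost when any of 6 of the 8 mice was left out (female controls 1, 2 or 3 or female Alport mice 1, 3 or 4).

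Of the Cyp2j and Cyp2c subfamilies, Cyp2j5, Cyp2j11 and Cyp2c44 fell in both sexes. Cyp2j5 measured 1725, 1841, 1945 and 2068 CPM in male controls and 967, 883, 703 and 1165 CPM in male Alport mice (log2 fold change -0.95, SE 0.15, adjusted p = 0.000223). The female values were 1243, 1058, 889.9 and 1061 CPM in controls and 564, 793, 683 and 606 CPM in Alport mice (log2 fold change -0.64, SE 0.13, adjusted p = 0.00242). Neither sex showed overlap between genotypes, and the female Cyp2j5 call was lost in the fit of all 32 mice (adjusted p = 0.0757). Cyp2c44, which makes epoxyeicosatrienoic acids in the kidney, measured 63.1, 59.2, 81.9 and 74.3 CPM in male controls and 39.5, 25.8, 32.8 and 39.5 CPM in male Alport mice (log2 fold change -0.94, SE 0.14, adjusted p = 0.000206). In females the values were 84.2, 111, 115 and 96.7 CPM and 26.6, 57.8, 33.8 and 45.0 CPM (log2 fold change -1.28, SE 0.21, adjusted p = 0.000721). Every control was above every Alport mouse in both sexes. Cyp2j11 went from 222 ± 16.4 CPM (SD, n = 4) to 92.8 ± 18.1 CPM in males (log2 fold change -1.18, SE 0.13, adjusted p = 1.68e-05) and from 203 ± 6.32 to 102 ± 27.6 CPM in females (log2 fold change -0.96, SE 0.15, adjusted p = 0.000618).

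Among the less abundant members, Cyp2f2 fell in both sexes. Cyp2f2, a naphthalene-oxidising enzyme best known from airway club cells, measured 21.6, 23.2, 20.5 and 21.2 CPM in male controls and 8.69, 9.44, 7.45 and 9.72 CPM in male Alport mice (log2 fold change -1.21, SE 0.10, adjusted p = 2.8e-06). Female controls measured 9.41, 7.53, 11.0 and 8.20 CPM and female Alport mice 2.28, 3.81, 3.88 and 5.45 CPM (log2 fold change -1.20, SE 0.24, adjusted p = 0.00205). The genotypes did not overlap in either sex. Cyp2j7, at 3.56 ± 0.524 CPM in female controls and 1.22 ± 0.346 in female Alport mice, fell in females (-1.49, SE 0.23, adjusted p = 0.000488), while in males its value was -0.70 (SE 0.31, adjusted p = 0.0778) and the difference between the sexes was -0.82 (SE 0.38, adjusted p = 0.402). Cyp2u1, a fatty acid hydroxylase, fell in females from 9.85 ± 0.846 to 6.71 ± 0.943 CPM (-0.51, SE 0.13, adjusted p = 0.00746), a call lost with total counts as library size (adjusted p = 0.18), and in males its value was -0.16.

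Calls of 2 low or small-effect members in males did not hold when single mice were left out. Cyp2b9 went from 1.35 ± 0.132 to 0.752 ± 0.181 CPM (-0.76, SE 0.27, adjusted p = 0.0335) and missed the threshold without any 1 of 7 mice (all but male Alport 2). Cyp2s1, the only member to rise in males, went from 23.9 ± 3.24 to 27.8 ± 3.06 CPM (0.30, SE 0.11, adjusted p = 0.0396) and missed it without any 1 of 5 (male controls 2, 3 and 4 and male Alport mice 1 and 3). Both were also lost in the fit of all 32 mice. In females Cyp2s1 was at 0.04. The remaining tested members were Cyp2j6, Cyp2j9, Cyp2r1, Cyp2t4, Cyp2b10, Cyp2c68, Cyp2c69 and Cyp2j8. The main edgeR fits called none of them in either sex where they could be tested. Cyp2c69 was called in females by DESeq2, in the fit of all 32 mice and without female Alport 3. Cyp2b10 was called in males without male Alport 4 (adjusted p = 0.00604). Cyp2j9 was called in males without male control 3 (adjusted p = 0.0443) and in females with total counts as library size (adjusted p = 0.0492). Cyp2j6 lay between 33.01 and 53.07 CPM in all 32 mice, with a log2 fold change of -0.04 in males that became 0.29 (adjusted p = 0.00252) with total counts as library size. For Cyp2r1 the control and Alport means were 1.43 ± 0.327 and 1.12 ± 0.209 CPM in males, and 1.68 ± 0.319 and 1.21 ± 0.527 CPM in females. Cyp2t4 was at 0.477 ± 0.182 and 0.323 ± 0.11 CPM in males and at 0.607 ± 0.244 and 0.424 ± 0.205 CPM in females.

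**Figure D2:**
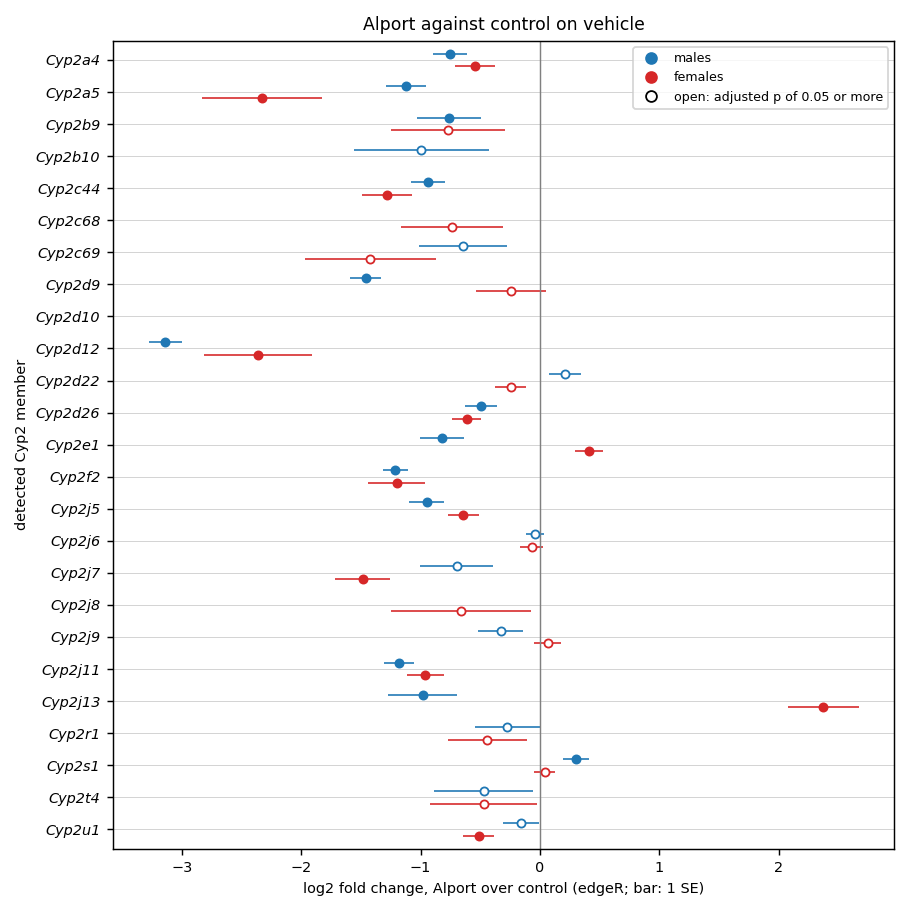
Log2 fold change of Alport over control mice on vehicle for each detected member (edgeR, points with bars of 1 SE), males in blue and females in red, with open points for adjusted p of 0.05 or more. Most points lie left of 0, and Cyp2j13 (-0.98 in males, 2.37 in females) and Cyp2e1 (-0.82 and 0.41) lie on opposite sides in the 2 sexes.

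Cyp2j13 and Cyp2e1 went in opposite directions in the 2 sexes. Cyp2j13, at the far end of the Cyp2j cluster from Cyp2j5, measured 391, 558, 288 and 471 CPM in male controls and 154, 251, 108 and 308 CPM in male Alport mice (log2 fold change -0.98, SE 0.29, adjusted p = 0.014). In females it measured 1.85, 2.97, 1.92 and 2.19 CPM in controls and 13.5, 5.40, 14.7 and 11.6 CPM in Alport mice (log2 fold change 2.37, SE 0.30, adjusted p = 0.000173). The male ranges overlapped at 1 mouse of each genotype, whereas every female Alport mouse was above every female control. Even so, the highest female Alport value was far below the lowest male one. The male call was lost with total counts as library size and in the fit of all 32 mice (adjusted p up to 0.127), and the Cyp2e1 calls below were lost in the latter (adjusted p = 0.156 in males and 0.618 in females). Cyp2e1, the ethanol- and acetone-inducible enzyme, measured 2052, 2363, 1790.2 and 1871 CPM in male controls and 1106, 1220.2, 673 and 1329 CPM in male Alport mice (log2 fold change -0.82, SE 0.19, adjusted p = 0.00317). The female values were 179.7, 189, 193 and 178 CPM in controls and 252, 292, 190.1 and 221 CPM in Alport mice (log2 fold change 0.41, SE 0.12, adjusted p = 0.0165). Males did not overlap, and in females 1 Alport mouse lay within the range of the controls.

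These were the 2 members called for a difference in the Alport effect between the sexes, out of 24 tested. The call required adjusted p under 0.05 and a 2-fold difference in 1 fit of the 16 mice on vehicle, which 0.285% of 16152 genes met. The female minus male difference in log2 fold change was 3.32 (SE 0.48, adjusted p = 0.00602) for Cyp2j13 and 1.20 (SE 0.24, adjusted p = 0.0365) for Cyp2e1. The Cyp2j13 call held without any single mouse. The Cyp2e1 call was lost without any 1 of 12 of the 16 mice, being kept without male control 3, male Alport 3 or 4 or female Alport 3. Both were lost in a fit of all 32 mice (adjusted p = 0.331 and 0.902).

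The sex comparison asks how males and females differed within a genotype on vehicle. Of 24 members tested in control mice on vehicle, 10 were higher in males and 7 higher in females, where 15.8% of 14990 genes were higher in males and 15.9% lower, 31.7% in total. In Alport mice on vehicle 6 of 21 were higher in males and 2 lower, where 2.03% of 15791 genes were higher and 1.81% lower, 3.84% in total. All 8 of these had also been called in the same direction in controls, so that 6 of 10 male-higher and 2 of 7 female-higher members were called again in Alport mice. The matching share of all genes was not counted, so this overlap need not be particular to the members. The interaction test above called only Cyp2j13 and Cyp2e1, which are among these 8, and none of the members called in controls alone. For the latter, the sex difference was thus not shown to differ between genotypes.

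Among male-higher members Cyp2j13, Cyp2e1, Cyp2d9 and Cyp2a4 had the largest fitted differences in controls, leaving Cyp2b10 aside. Cyp2j13 was at 427 ± 115 CPM (SD, n = 4) in male and 2.23 ± 0.514 CPM in female controls, a log2 difference of 7.55 (SE 0.24, adjusted p = 2.07e-09), and in Alport mice the log2 difference was 4.18 (SE 0.38, adjusted p = 0.000331). Cyp2e1 was at 2019 ± 254 and 185 ± 7.03 CPM in male and female controls (log2 difference 3.43, SE 0.10, adjusted p = 9.09e-10), and in Alport mice the log2 difference was 2.18 (SE 0.21, adjusted p = 0.000485). For Cyp2d9 the log2 difference was 2.79 (SE 0.23, adjusted p = 6.09e-06) in controls and 1.55 (SE 0.23, adjusted p = 0.00613) in Alport mice. For Cyp2a4 it was 2.12 (SE 0.14, adjusted p = 7.73e-07) in controls and 1.90 (SE 0.18, adjusted p = 0.000382) in Alport mice. In none of these 4 genes did a male vehicle mouse fall below a female one of the same genotype. Cyp2b10, the phenobarbital-inducible enzyme, gave 87 counts in all in the 4 male controls (1.04 CPM) and 0 in the 4 female controls on vehicle. Against a floor of 3 counts over the female group, which is 0.0308 CPM and covers counting error only, it was at least 33.7-fold higher in males. Cyp2b10 passed the detection limit through males only, with 5 mice at the limit and no female above 0.1892 CPM. Its place among the 10 male-higher members therefore depends on that filter.

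Smaller male excesses were called for 5 further members in controls. These were Cyp2f2 (1.23, SE 0.12, adjusted p = 2.15e-05), Cyp2d12 (1.11), Cyp2a5 (0.94), Cyp2j5 (0.81) and Cyp2j9 (0.54). In Alport mice Cyp2f2 (1.20) and Cyp2a5 (2.12) were called again. The Cyp2a5 and Cyp2j9 calls in controls were lost with total counts as library size, and each was lost without any 1 of 5 mice (male controls 1 and 2 and female control 1 for both, with male control 4 and female control 4 for Cyp2a5 and female controls 2 and 3 for Cyp2j9). In Alport mice the Cyp2a5 call was lost without male 1 or 2 or female 3 or 4, and the Cyp2f2 call without male 1, 2 or 4 or female 3.

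Female-higher members were led by Cyp2c68 and Cyp2d26. Cyp2c68 was at 0.286 ± 0.118 CPM in male and 0.91 ± 0.446 CPM in female controls (log2 difference -1.68, SE 0.44, adjusted p = 0.0128), at low counts and with much of its sequence shared with Cyp2c40. It was at the detection limit in 16 of 32 mice, mostly females, and no male on vehicle was above 0.4426 CPM. Its place among the female-higher members therefore depends on that filter. Cyp2d26, whose values per mouse are given above, had no overlap between the sexes in either genotype, with a log2 difference of -1.43 (SE 0.10, adjusted p = 1.52e-06) in controls and -1.33 (SE 0.16, adjusted p = 0.00161) in Alport mice. It stood opposite to Cyp2d9 and Cyp2d12 of the same cluster. Within the Cyp2j cluster the female-higher Cyp2j7 (-0.74, lost without female control 4) lay next to the male-higher Cyp2j13, with Cyp2j6 (0.02) and Cyp2j11 (0.10) not called. The others were Cyp2d22 (-0.69), Cyp2s1 (-0.69), Cyp2u1 (-0.58) and Cyp2c44 (-0.57). Of these, Cyp2s1 was called in Alport mice (-0.44, SE 0.11, adjusted p = 0.0479), a call lost without any 1 of 6 mice (male Alport 1, 2 or 4 or female Alport 1, 3 or 4). In the fit of all 32 mice the control calls of Cyp2a5, Cyp2c44, Cyp2d12, Cyp2j5, Cyp2j7 and Cyp2j9 were lost (adjusted p from 0.0539 to 0.278), as were the Alport calls of Cyp2a5 (0.0678) and Cyp2s1 (0.0977). Proximal tubule markers were mixed between control sexes, 6 of 19 being higher and 4 lower in males (median log2 difference -0.08).

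**Figure D3:**
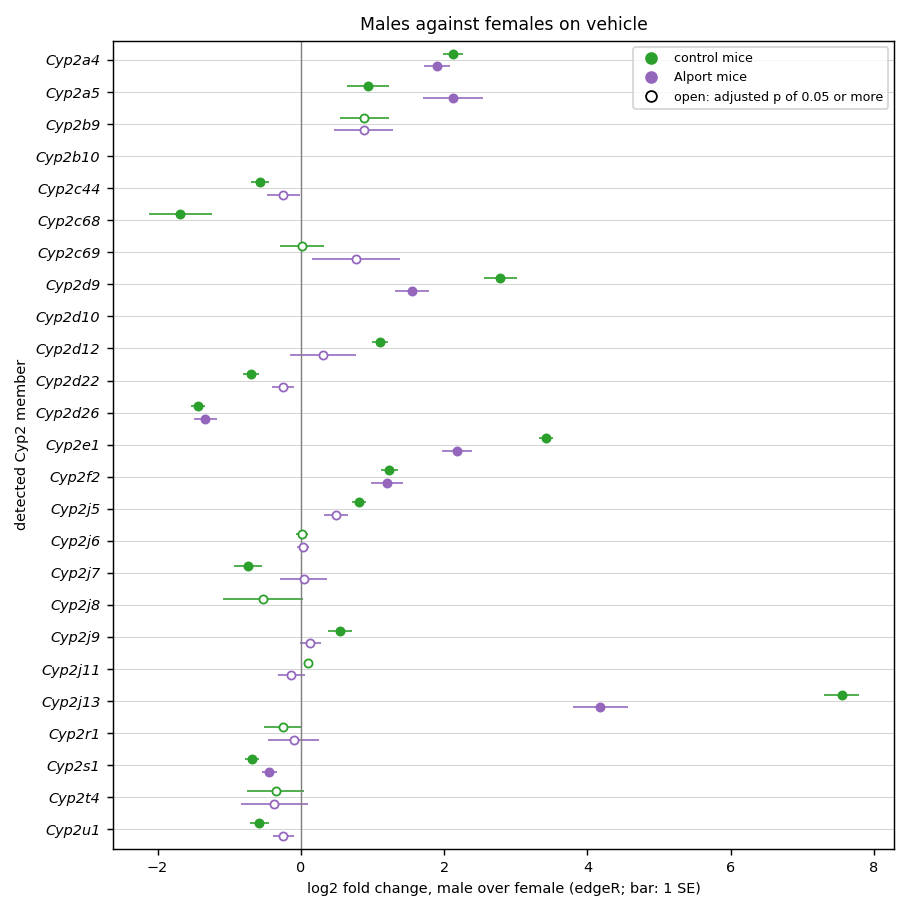
Log2 fold change of male over female mice on vehicle for each detected member (edgeR, points with bars of 1 SE), control mice in green and Alport mice in purple, with open points for adjusted p of 0.05 or more. Cyp2j13 (7.55 in controls, 4.18 in Alport mice) and Cyp2e1 (3.43 and 2.18) lie farthest to the right in both genotypes, followed by Cyp2d9 in controls (2.79) and Cyp2a5 in Alport mice (2.12), and Cyp2b10 is left out because it had no count in female controls.

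The NR comparisons ask whether the treatment changed these genes within a sex and genotype. In Alport mice edgeR called none of 21 members tested in males and none of 22 in females, where 0% of 15500 genes were called in males and 0.477% of 15712 in females (0.388% higher and 0.0891% lower). At an unadjusted p under 0.05 there were 4 members in males and 5 in females, with no share of all genes at that limit to set beside them. DESeq2 called 0 in males and 2 in females (Cyp2a5 and Cyp2j13). In control mice 2 of 23 members were called in males, 1 higher and 1 lower, where 3.07% of 14696 genes were higher and 1.46% lower, 4.53% in total. In female controls 1 of 21 was called, higher, where 6.18% of 14951 genes were called, 3.91% higher and 2.27% lower. The Alport and control comparisons use separate mice, but each shares its vehicle mice with the genotype comparison above.

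In male controls NR was accompanied by higher Cyp2d26 and lower Cyp2f2. Cyp2d26 measured 477, 265, 379 and 270.3 CPM in the libraries labelled male control on NR, in the order of replicates, all above the highest male control on vehicle (164.8 CPM). The log2 fold change was 1.30 (SE 0.19, adjusted p = 0.0102), and the call held without any single mouse and under every alternative tried. Cyp2f2 measured 12.1, 14.7, 14.2 and 12.0 CPM, all below the lowest male control on vehicle, with a log2 fold change of -0.69 (SE 0.11, adjusted p = 0.0105). The Cyp2f2 call was lost without male control 1 on vehicle and in the fit of all 32 mice (adjusted p up to 0.146). In male Alport mice Cyp2d26 measured 175, 326, 117 and 183 CPM on NR, each above the highest Alport male on vehicle (106.8 CPM). The log2 fold change there was 1.05 with adjusted p = 0.799, and the fit of all 32 mice called it (adjusted p = 0.0136). Other markers moved in the male control comparison too: hepatocyte marker sums were 181.3 to 375.5 CPM on NR and 35.16 to 127.9 CPM on vehicle, and Serpina1a (1 of 4 hepatocyte markers tested), Fabp4 (1 of 1 adipocyte marker) and Col1a2 and Vim (2 of 7 matrix markers) rose. Their part in the Cyp2 values was not tested. In females the Cyp2d26 values were 0.27 (SE 0.09, adjusted p = 0.082) in controls and 0.21 (SE 0.13, adjusted p = 0.44) in Alport mice.

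In female controls Cyp2a4 was the member called, and hepatocyte marker sums were 94.62 to 133.6 CPM on NR and 50.33 to 74.48 CPM on vehicle, with 2 of 5 hepatocyte markers (Apoc3 and Serpina1a) and Fabp4 higher and their part not tested. It measured 223, 232, 269 and 228 CPM on NR, all above the highest female control on vehicle (190.4 CPM), and the log2 fold change was 0.43 (SE 0.10, adjusted p = 0.0301). The call was lost without any 1 of 4 mice (female vehicle control 2 or female NR controls 1, 3 or 4), in the fit of all 32 mice and with total counts as library size.

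Several male-higher genes varied widely among the NR-treated males. In the libraries labelled male control on NR, Cyp2e1 measured 475, 1960.2, 489.9 and 1296 CPM and Cyp2j13 43.0, 235, 49.4 and 212 CPM. Replicates 1 and 3 were the low ones for both genes, and the same 2 were lowest for Cyp2d12 (77.5, 164, 44.2 and 243 CPM) and Cyp2a4 (385, 851, 310.0 and 829 CPM). Their proximal tubule marker sums were 27070 and 29270 CPM, against 43780 and 44080 CPM in replicates 2 and 4, and a part of this in the Cyp2 values was not tested. The log2 fold changes against vehicle were -0.93 (SE 0.40, adjusted p = 0.196) for Cyp2e1, -1.66 (SE 0.51, adjusted p = 0.0892) for Cyp2j13 and -1.17 (SE 0.40, adjusted p = 0.12) for Cyp2d12. Without NR male control 2 the number of members called was 6, with Cyp2b10, Cyp2d9, Cyp2d22 and Cyp2e1 added, and without NR male control 4 it was also 6, with Cyp2d9, Cyp2d12, Cyp2d22 and Cyp2j13 added. Without vehicle male control 1 it was 1 (Cyp2d26).

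In NR-treated Alport mice, Cyp2a5 stood far above its copy Cyp2a4 in 3 animals. Cyp2a5 measured 317, 663, 1951 and 604 CPM in Alport males on NR, against 228.7 to 359 CPM on vehicle. Cyp2a4 measured 216, 504, 113 and 709 CPM in the same males, so that replicate 3 had the highest Cyp2a5 and the lowest Cyp2a4. Their ratio in that mouse was 17.2, against 0.4654 to 0.7525 in Alport males on vehicle. Alport females on NR measured 163, 108, 496 and 1868 CPM of Cyp2a5 and 155, 114, 78.5 and 35.9 CPM of Cyp2a4, in the order of replicates. Replicate 4 reached a ratio of 52.0 and replicate 3 one of 6.32, against 0.2696 to 0.8617 in Alport females on vehicle. In controls the ratio was 1.237 to 2.913 in females on vehicle and 0.8619 to 1.439 in females on NR. In control males it was 0.5464 to 1.152 on vehicle and 1.164 to 2.431 on NR. The sequence shared by the pair leaves the division of reads behind these ratios uncertain. The log2 fold change of Cyp2a5 was 1.61 (SE 0.49, adjusted p = 0.855) in males and 3.33 (SE 0.91, adjusted p = 0.141) in females, so neither passed the test against the spread between mice, whereas DESeq2 and the fit of all 32 mice called it in females (lowest adjusted p = 0.00569).

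The same 3 animals were low for Cyp2e1, while Cyp2j9 was highest of its group in male 3 (23.5 CPM) and female 4 (21.8 CPM). Cyp2e1 measured 520.0, 1565, 105 and 1339.8 CPM in Alport males and 215, 274, 51.9 and 65.4 CPM in Alport females on NR, lowest in male 3 and in females 3 and 4. Cyp2j13 measured 89.9, 177, 8.48 and 302 CPM in the males, lowest in replicate 3. In Alport females on NR it measured 4.12, 3.77, 1.23 and 2.19 CPM, all below the lowest Alport female on vehicle (5.398 CPM), with a log2 fold change of -1.99 (SE 0.39, adjusted p = 0.0674). DESeq2 called that difference, as did edgeR without a low-count filter and without female vehicle Alport 2. Cyp2d12 measured 2.88, 102, 1.96 and 56.6 CPM in Alport males on NR, lowest in replicates 1 and 3, and Cyp2j5 measured 581, 1245, 257 and 1497 CPM, lowest in replicate 3.

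Other measurements set these 3 animals apart in different ways. Male 3 had the lowest proximal tubule marker sum of all 32 mice (7526 CPM), whereas females 3 and 4 stood at 18900 and 16530 CPM, within the 12450 to 21760 CPM of Alport females on vehicle. Male 3 had the lowest interstitial matrix sum of its group (395.6 CPM) and females 3 and 4 the lowest of theirs (477.9 and 334.1 CPM), against 1078 to 1667 CPM in male and 896.6 to 1461 CPM in female Alport mice on vehicle. Hepatocyte marker sums were 269.1, 98.27 and 69.41 CPM in the same order, against 33.05 to 115.6 and 78.74 to 156.9 CPM in male and female Alport mice on vehicle. The part of any of these in the Cyp2a5 values was not tested.

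**Figure D4:**
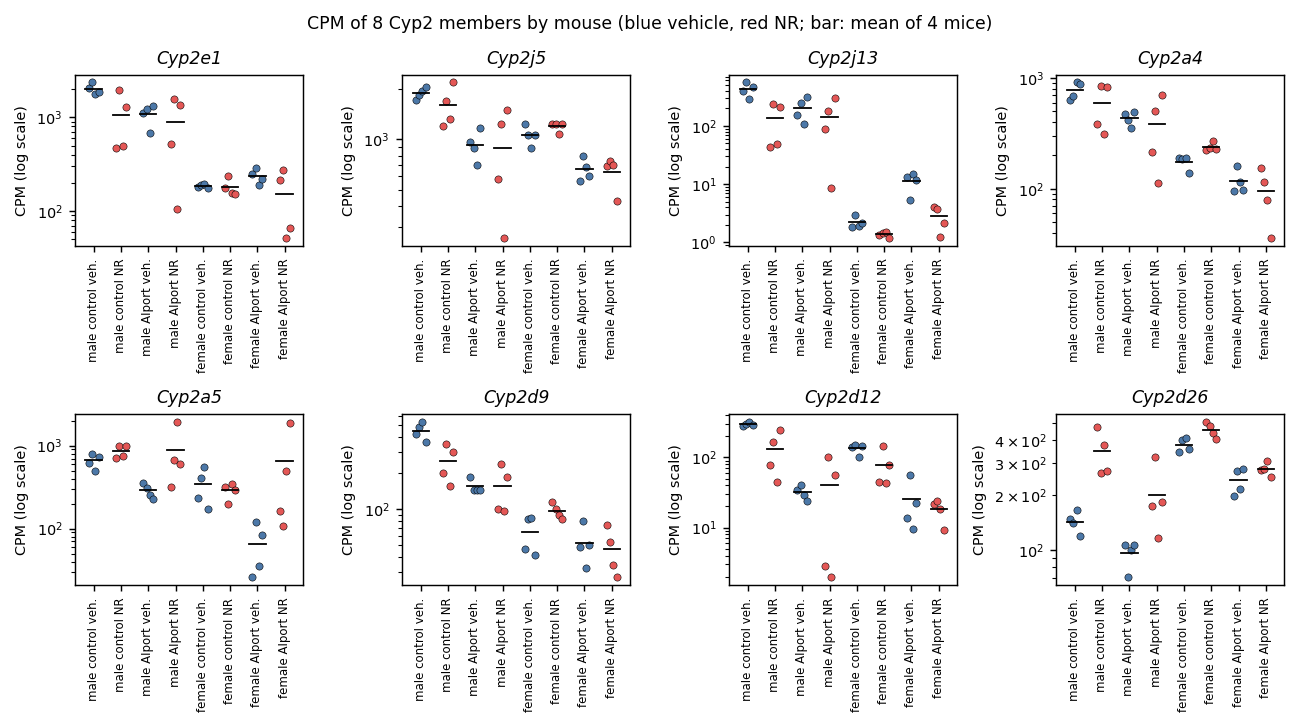
CPM of 8 members in each mouse by group (log axis; points are mice, blue on vehicle and red on NR, in replicate order from left; bars are means of 4 mice). For most members shown, NR-treated males spread over a wider range than vehicle-treated males, for example 8.482 to 302.0 CPM for Cyp2j13 in Alport males on NR against 107.7 to 307.7 CPM on vehicle. Cyp2a5 in male controls did not (719 to 990.9 CPM on NR against 500.4 to 800.2 CPM on vehicle).

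Neither test of a difference in the NR effect between Alport and control mice called a member. None of 24 members passed in males and none of 23 in females, where 0% of 15800 and 0% of 16064 genes passed. At an unadjusted p under 0.05 there were 1 and 7 members, and DESeq2 called 0 in each sex. Shares of all genes at that unadjusted limit are not given, so these counts need not be particular to the members. For Cyp2a5 the difference in log2 fold change (Alport minus control) was 1.21 (SE 0.54, adjusted p = 0.547) in males and 3.55 (SE 0.99, adjusted p = 0.376) in females.

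**Figure D5:**
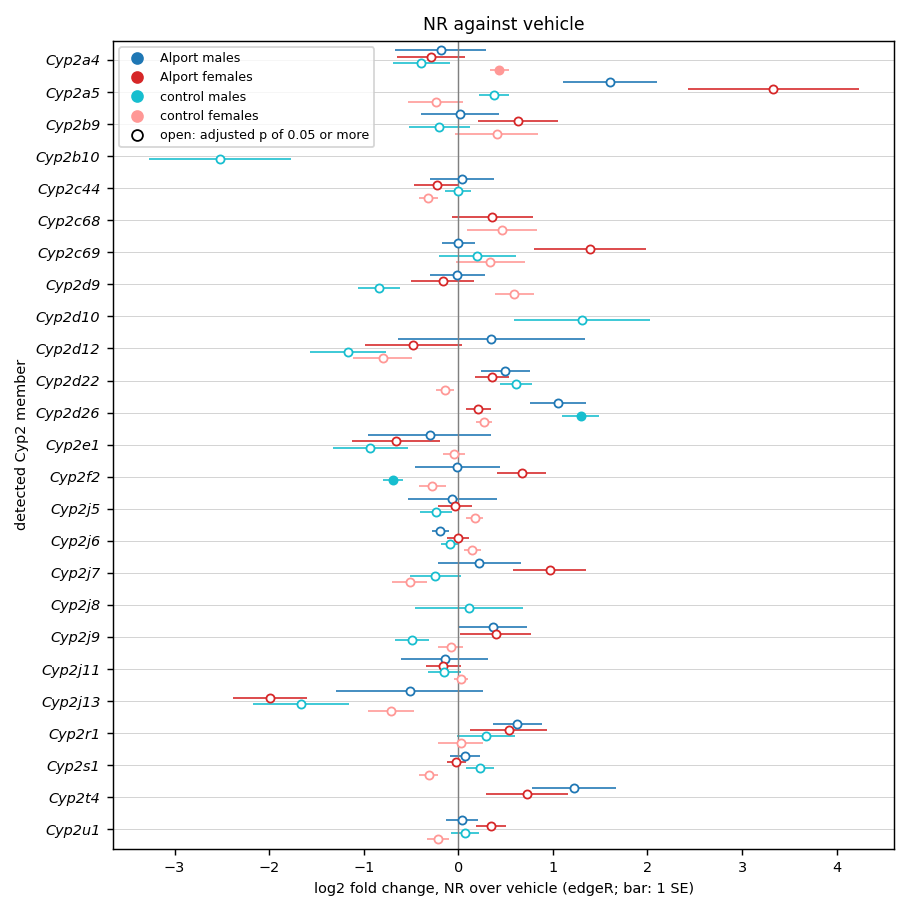
Log2 fold change of NR over vehicle for each detected member in 4 comparisons (edgeR, points with bars of 1 SE; filled points have adjusted p under 0.05). Filled points are Cyp2d26 (1.30) and Cyp2f2 (-0.69) in control males and Cyp2a4 (0.43) in control females, and the wide bars of Cyp2a5 in Alport mice (1.61 in males, 3.33 in females) reflect the spread between mice.

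Genes that serve or control the family were counted from lists. Of all genes tested, 51% were called in Alport males, 45.8% in Alport females, 31.7% between control sexes and 3.84% between Alport sexes. With NR the shares were 4.53% in male controls, 6.18% in female controls, 0% in Alport males and 0.477% in Alport females. Of 17 genes for electron transfer and haem supply, 11 fell and 1 rose in Alport mice of each sex (70.6% called). Por, the reductase that feeds all microsomal P450 enzymes, had log2 fold changes of -0.79 (adjusted p = 0.000395) in males and -0.81 (adjusted p = 0.00104) in females, and Alas1, the first enzyme of haem synthesis, -1.07 (adjusted p = 0.00233) and -0.56 (adjusted p = 0.0394). With NR 5 of 17 rose and 1 fell in female controls, 1 rose in male controls and none was called in Alport mice. Between control sexes 8 were higher and 1 lower in males, and between Alport sexes 3 were higher.

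Among regulators, 7 of 18 tested fell and 1 rose in Alport males, and 8 of 19 fell and 1 rose in Alport females. The shares called, 44.4% and 47.4%, were near those of all genes (51% and 45.8%). Hnf4a, a nuclear receptor of proximal tubule and liver, had log2 fold changes of -0.83 (adjusted p = 0.000403) and -0.81 (adjusted p = 0.000267). Between control sexes 5 were higher in males and 6 lower, among the latter the prolactin receptor Prlr (-2.42, adjusted p = 0.000159) and the xenobiotic receptor Nr1i3 (-1.73, adjusted p = 0.00266). In Alport mice only Prlr differed by sex (-1.84, adjusted p = 0.0168). Nr1i3 was higher with NR in male controls (2.23, adjusted p = 0.0175), the only regulator of 19 called there, and 2 fell in female controls.

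Other arachidonic acid and epoxide enzymes were counted in the NR comparisons as well. Of this list 5 of 16 rose in male controls (31.2%), 7 of 15 in female controls (46.7%) and 4 of 16 in Alport females (25%), and none fell. Among all genes 4.53%, 6.18% and 0.477% were called in these 3 comparisons. In Alport males none of 16 passed the test. The omega-hydroxylase Cyp4a14 had log2 fold changes of 5.89 (adjusted p = 0.0026) in male and 1.72 (adjusted p = 0.00213) in female controls, 3.02 (adjusted p = 0.0141) in Alport females and 5.19 (adjusted p = 0.252) in Alport males. Cyp4a10 had 2.45 (adjusted p = 0.0141), 1.32 (adjusted p = 0.00548), 2.05 (adjusted p = 0.0102) and 2.23 (adjusted p = 0.306) in the same order. Soluble epoxide hydrolase Ephx2 had 0.09 (adjusted p = 0.697), 0.76 (adjusted p = 0.00309), 1.02 (adjusted p = 0.0102) and 0.34 (adjusted p = 0.939). In the Alport comparison 5 of 16 of these genes rose and 4 fell in males, and 4 rose and 7 fell in females. That was 56.2% and 68.8% of those tested, against 51% and 45.8% of all genes. Between control sexes 3 of 14 were higher and 7 lower in males, and between Alport sexes 2 were higher and 2 lower.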

How the data were processed

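Kidney cortex RNA of 32 mice was sequenced after poly(A) selection. The deposited tables held raw counts per gene, which the authors made with BioJupies per the study's methods, and the same values as log10 CPM (counts scaled to the library total), also deposited. The submitters' processing notes name mm10, and the aligner, annotation and strand setting are not given in the sources used here. Groups came from the sample labels. Counts were tested with edgeR 4.0.16 in R 4.3.3 (quasi-likelihood F test, filterByExpr with a count minimum of 10, TMM scaling, Benjamini-Hochberg adjustment over all genes tested, threshold 0.05), in fits of the 8 mice compared or, for interactions, 16 mice. SE was the absolute log2 fold change over the square root of F. CPM values use TMM-scaled totals, and log2 CPM a prior count of 2. The scripts were tested on simulated data. Positions came from GENCODE vM21 and promoters from RefSeq, aligned with biopython 1.88. The 4 replicates of a group carry no statement of litter or day. Replicate numbers did not pair mice (correlation of deviations -0.167 to 0.262 over 32 pairs, 5 over 0.1), and no libraries of a group agreed within sampling noise. Total counts of 16621944 or more limit precision for members near 0.5 CPM, and floors cover counting error only.

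Every detected member is named. Values by mouse or group are given for the most abundant member of each subfamily, members called under NR or in an interaction, and the 8 called members with the largest changes in the genotype and sex comparisons. Gene lists covered electron transfer and haem supply, regulators, arachidonic acid and epoxide enzymes, and markers of proximal tubule, loop of Henle and collecting duct, hepatocyte, adipocyte, adrenal cortex, immune cells and matrix. The members and lists were chosen with earlier results of these data known. Alternatives were DESeq2 1.42.0, RLE factors, other count filters, a fit of all 32 mice, a replicate block, leaving out each mouse, and total counts as library size, which was chosen after seeing the data.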

Additional observations from a re-analysis of the deposited data

Results flagged for a closer look

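A mouse far from the other 3 of its group was found in 14 of 200 sets of a member and a group, where chance gives about 1 in 20. Values are CPM, with the range of the other 3 mice after each.

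Among abundant members, Cyp2a4 was 138.6 in female vehicle control 4 (185.7 to 190.4). Cyp2d12 was 101.0 in female vehicle control 3 (142.4 to 150.4). Cyp2d9 was 186.1 in male vehicle Alport 1 (143.0 to 145.2), and Cyp2d26 was 70.66 in male vehicle Alport 2 (99.71 to 106.8). Cyp2d22 was 71.94 (45.64 to 48.9) and Cyp2j5 was 430.3 (689.7 to 738.9) in female NR Alport 4, the mouse with the highest female Cyp2a5. Cyp2j5 was 1081 in female NR control 3 (1233 to 1247).

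Among members near the detection limit, Cyp2b10 was 1.226 in male vehicle Alport 4 (0.2029 to 0.2849), 0.1892 in female NR control 3 and 0.0377 in female vehicle Alport 2, with the other 3 mice at 0 in both female groups. Both female flags were therefore fixed by the zeros, and 0.0377 CPM was 1 count. Cyp2c68 was 0.7195 in female NR control 2 (1.385 to 1.53) and 0.2243 in female vehicle Alport 1 (0.6039 to 0.7214). Cyp2j8 was 0.4058 in male vehicle Alport 1 (0.1221 to 0.1528), and Cyp2t4 was 0.4523 in female NR Alport 1 (0.7436 to 0.8204).

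The Alport effect differed between the sexes by the edgeR interaction test for Cyp2j13 (female minus male 3.32 on the log2 scale, adjusted p = 0.00602) and Cyp2e1 (1.20, adjusted p = 0.0365).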

How the results depend on the processing

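Alternative values were counted for each member and comparison with a call in any setting. Of these, 1055 kept the side of the threshold, 93 lost the call, 37 gained it and 1 reversed (Cyp2j6 in Alport males, 0.29 with total counts). A change of sign without a call in either fit was counted as kept, as for Cyp2j9 in Alport males (-0.33, and up to 0.01 in the alternatives). Called members in 1 fit of all 32 mice were 7 for Alport males, 11 for sex in controls, 0 for the sex-genotype interaction, 1 for NR in Alport males, 1 in Alport females, 1 in male controls and 0 in female controls. DESeq2 called 2 for NR in Alport females, 5 in male controls and 3 in female controls. Without a low-count filter 1 was called for NR in Alport females, and with total counts 2 for NR in female controls. Shares of all genes called in the alternative fits are not given here or above, so these shifts need not be particular to the members. The cause of these shifts was not tested.

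Leaving out each mouse gave 11 to 13 calls for Alport males, 11 to 12 for Alport females, 15 to 17 for sex in controls, 5 to 8 for sex in Alport mice and 1 to 2 for the sex-genotype interaction. For NR it gave 0 to 0 in Alport males, 0 to 1 in Alport females, 1 to 6 in male controls and 0 to 2 in female controls. With the replicate block 4 members were called for NR in male controls, and the other counts of calls stayed within 1.5 times. At 1 count or more in any mouse 42 members were detected, and 21 at 1 CPM. Members near 0.5 CPM rest on few counts.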
